A study of Mus musculus with 6 samples.

Results

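Breakdown of the branched-chain amino acids leucine, isoleucine and valine was followed in mouse liver through 10 genes chosen by name: the aminotransferases Bcat1 and Bcat2, the dehydrogenase subunits Bckdha, Bckdhb and Dbt, their kinase Bckdk and phosphatase Ppm1k, and the leucine-specific enzymes Ivd, Mccc1 and Mccc2. All 10 were found among the 56305 Ensembl genes of the table. Of these, 9 passed the filter on low values, which asks for 20 normalized counts or more in at least 3 livers, and were tested, and Bcat1 did not pass. The livers came from 3 WT and 3 Vps15LKO mice, with 1 RNA-Seq library per mouse. All 6 were males of 5 weeks, fed ad libitum and collected at ZT6, that is, 6 h after lights on. Vps15LKO mice (AlbCre+;Vps15 f/f) have lost Vps15, the regulatory subunit of class 3 PI3K, through a Cre driven by the albumin promoter. The deletion is chronic, the albumin promoter is known for its activity in cells of the hepatocyte lineage, and which cells of these livers lost the gene is not shown by the table. Whether the WT mice carried floxed alleles is not given in the sources used here.

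Branched-chain amino acids first lose their amino group to an aminotransferase, and the resulting 2-oxo acids are then oxidized irreversibly in mitochondria by the branched-chain 2-oxo acid dehydrogenase complex. A dedicated kinase switches this complex off by phosphorylation and a dedicated phosphatase switches it on again. Liver is known for low aminotransferase and high dehydrogenase activity, so that much of what it oxidizes arrives as 2-oxo acids from other tissues.

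The 6 libraries held between 16137093 and 18110223 reads on genes. The authors divided the reads of each library by a size factor, from 0.742 to 0.801 for WT and from 1.23 to 1.41 for Vps15LKO, so that 1 read counts for 1.25 to 1.35 normalized counts in WT and for 0.707 to 0.810 in Vps15LKO. Levels in the text are these normalized counts, given as mean ± SD (n = 3 mice). Differences are log2 fold changes of Vps15LKO against WT from limma on log2(normalized count + 1), with Benjamini-Hochberg adjustment over 15430 genes. A gene was called when its adjusted p was under 0.05 and its fold at least 1.2. Pik3r4, the gene of Vps15, was read at 508, 573 and 459.7 normalized counts in WT and at 341, 362 and 355 in Vps15LKO livers, a log2 fold change of −0.54 (SE 0.11, limma adjusted p = 0.00207). This difference became 0.19 when every library was scaled to the same total of reads. The table has 1 value for the whole gene and none for the deleted exons.

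Of the 10 genes, 8 were called lower in the livers of Vps15LKO mice: Bcat2, all 3 dehydrogenase subunits, Ppm1k, Ivd, Mccc1 and Mccc2. Their levels fell to between 22.4% (Ppm1k) and 46.9% (Bckdhb) of WT. Bckdk, the kinase that switches the dehydrogenase off, was not called, and Bcat1 was too low to test. Among all tested genes 66.5% were called, 33.0% lower and 33.5% higher. Among the 5654 genes whose mean over the 6 livers lay within the range of the 9 tested members, 45.5% were called lower and 23.5% higher. The median log2 fold change was −1.48 over the 9 tested members, −0.22 over the genes of that range and −0.02 over all tested genes. In these 8 genes every WT value lay above every Vps15LKO value, which held for 36.8% of all tested genes, and the reverse separation for 36.4%.

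**Figure D1:**
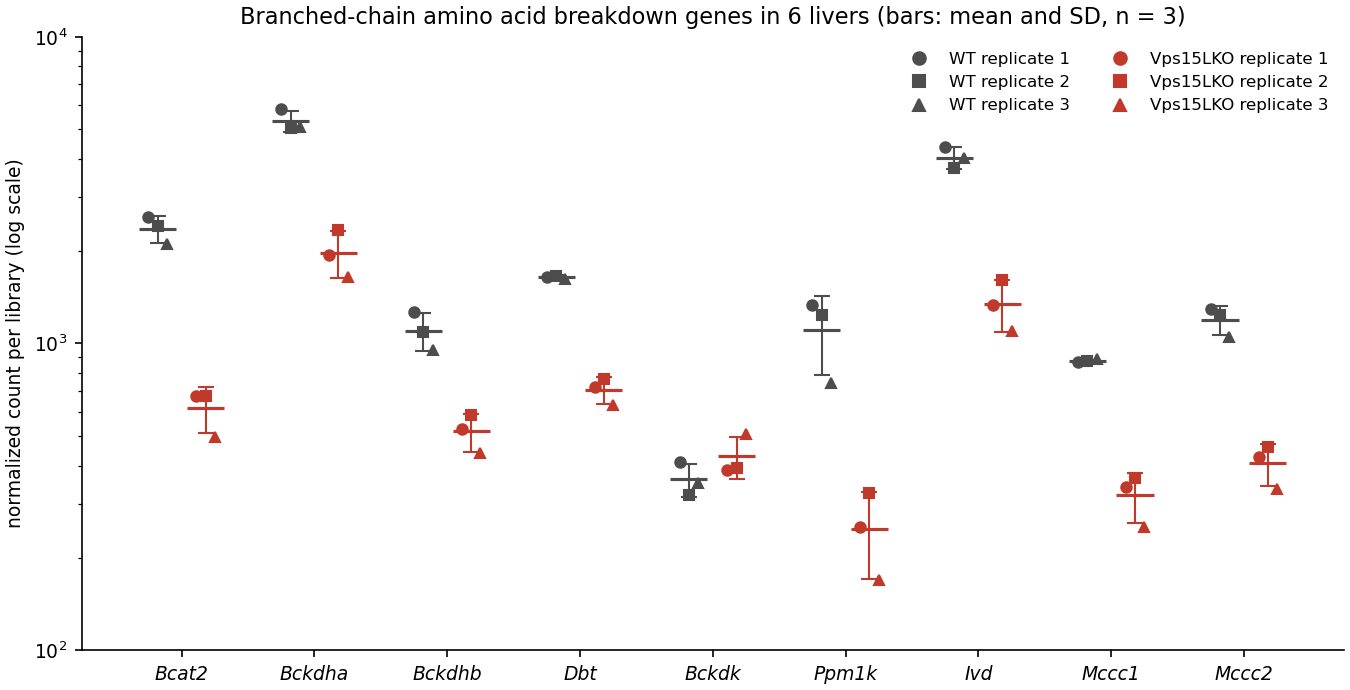
Normalized counts (log axis) of the 9 tested genes in each of the 6 livers, with WT in grey and Vps15LKO in red, a marker shape for each replicate number, and bars for mean and SD (n = 3). For 8 genes the red points sit wholly below the grey ones, and for Bckdk (319.8 to 409.7 in WT, 388 to 507 in Vps15LKO) the groups overlap.

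Bcat2 encodes the mitochondrial aminotransferase and lies on the plus strand at chr7:45570153-45589711 of GRCm38. Its normalized counts were 2579, 2411 and 2111 in WT and 674, 676 and 495 in Vps15LKO livers. The lowest WT liver was still far above the highest Vps15LKO liver. The mean fell from 2367 ± 237 to 615 ± 104, a log2 fold change of −1.95 (SE 0.14, 95% interval from −2.27 to −1.63, limma adjusted p = 8.6e-06). An antisense gene, 0610005C13Rik, shares 622 bases, or 15.9% of the exon length of Bcat2, on the other strand. The antisense gene fell from 4307 ± 339 to 962 ± 148 normalized counts, a log2 fold change of −2.17. Whether featureCounts used the strand is not given in the sources used here, so reads of the shared stretch cannot be assigned to either gene with certainty.

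Bcat1 encodes the cytosolic aminotransferase, which is known from brain and a few other tissues, and lies on the minus strand at chr6:144993835-145076184. No read was counted for it in the 3 WT libraries. The Vps15LKO libraries held 4, 2 and 3 reads, or 3.05, 1.62 and 2.12 normalized counts. A count of 0 in a single WT library allows up to 3 reads, worth 3.75 to 4.04 normalized counts, which is above each Vps15LKO value, so no fold is given. Without the filter on low values limma called Bcat1 higher, at a log2 fold change of 1.68 that depends on the pseudocount.

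Bckdha and Bckdhb encode the alpha and beta subunits of the decarboxylase that opens the dehydrogenase reaction. Bckdha, on the minus strand at chr7:25629946-25658981, had 5794, 5039 and 5093 normalized counts in WT and 1949.6, 2339 and 1644 in Vps15LKO livers. Every Vps15LKO value was less than any WT value by a wide margin. From 5309 ± 422 the level fell to 1978 ± 348, a log2 fold change of −1.44 (SE 0.14, 95% interval from −1.75 to −1.12, limma adjusted p = 3.7e-05). B3gnt8, a glycosyltransferase gene on the other strand, shares 1171 bases, which is 61.7% of the exon length of Bckdha. Its normalized counts were 3779 ± 383 in WT and 1475 ± 199 in Vps15LKO, a log2 fold change of −1.36, and the same limit on strand holds for this pair.

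Bckdhb, on the plus strand at chr9:83925145-84124240, shares no exon with another gene. Its WT livers held 1264, 1090.5 and 950.3 normalized counts and its Vps15LKO livers 527, 583 and 439. The groups were apart, and Vps15LKO replicate 3 was the lowest of all. The mean went from 1102 ± 157 to 517 ± 72.7, the smallest change among the 8 lower genes at a log2 fold change of −1.09 (SE 0.14, 95% interval from −1.41 to −0.77, limma adjusted p = 0.00017).

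Dbt encodes the acyltransferase that forms the core of the complex and lies on the plus strand at chr3:116513070-116549981. It was among the steadiest of the genes, at 1651, 1661 and 1619 normalized counts in WT and 722, 765 and 629 in Vps15LKO livers. The WT livers barely differed from one another, and all 3 Vps15LKO livers were well below them. The level fell from 1644 ± 22.1 to 706 ± 69.3, a log2 fold change of −1.22 (SE 0.10, 95% interval from −1.444 to −1.003, limma adjusted p = 1.3e-05).

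The switch of the complex is set by Bckdk, the kinase that inactivates it, and Ppm1k, the mitochondrial phosphatase that reactivates it. Their promoters, from 250 bases before to 50 bases after the annotated start, are shown because these regulators of opposite action moved differently, and that of Mccc2 because it alone among the 12 promoter windows found for 9 of the 10 genes holds an E-box, the CACGTG element bound by the clock factors Bmal1 and Clock. Sequences are from RefSeq (GRCm38.p6). Capitals mark CCAAT or its reverse complement ATTGG and, in Mccc2, also CACGTG. The Bckdk window is chr7:127903823-127904122 (plus strand), the Ppm1k window is chr6:57535438-57535737 (minus strand) and the Mccc2 window is chr13:100015590-100015889 (minus strand).
Bckdk: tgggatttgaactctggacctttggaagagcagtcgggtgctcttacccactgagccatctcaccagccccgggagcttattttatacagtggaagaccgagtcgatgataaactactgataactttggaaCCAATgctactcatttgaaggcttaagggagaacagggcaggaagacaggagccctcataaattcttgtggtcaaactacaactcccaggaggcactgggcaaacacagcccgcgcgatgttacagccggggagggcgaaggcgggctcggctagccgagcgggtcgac
Ppm1k: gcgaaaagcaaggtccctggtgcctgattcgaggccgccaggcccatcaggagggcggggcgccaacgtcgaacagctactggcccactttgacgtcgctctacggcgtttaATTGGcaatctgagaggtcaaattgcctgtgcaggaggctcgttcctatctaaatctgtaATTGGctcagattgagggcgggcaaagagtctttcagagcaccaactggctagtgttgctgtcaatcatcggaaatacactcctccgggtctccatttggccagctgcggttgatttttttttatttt
Mccc2: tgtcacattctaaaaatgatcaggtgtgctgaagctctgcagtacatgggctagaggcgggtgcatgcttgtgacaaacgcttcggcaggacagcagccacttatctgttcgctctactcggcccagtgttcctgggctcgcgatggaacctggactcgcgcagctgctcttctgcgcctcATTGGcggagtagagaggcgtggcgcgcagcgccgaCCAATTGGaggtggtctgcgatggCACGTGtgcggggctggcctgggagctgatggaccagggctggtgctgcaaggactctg
Motifs were searched on both strands in all windows. The E-box CACGTG was found in 7.15% of 32851 mouse promoter windows of this length and, among the windows here, in that of Mccc2, starting 9 bases before the start. The variant CACGTT was found in 4.68% of all windows and in 1 window each of Bcat1 and Bcat2, starting 183 and 78 bases before the start. No D-box (TTATGNAA), which 3.38% of all windows hold, was found. CCAAT, chosen after the sequences were seen, was in 37.4% of all windows and in 8 of the 12, belonging to 7 genes, among them Bckdk, where the only match starts 119 bases before the start, and Ppm1k, where matches start 138 and 78 bases before it. In Mccc2 the CCAAT and ATTGG matches nearest to the E-box overlap each other. A match of letters is not a bound site.

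Ppm1k, on the minus strand at chr6:57506502-57535468, had 1339, 1242 and 743 normalized counts in WT and 252, 325 and 169 in Vps15LKO livers. WT replicate 3 was the lowest of its group, but the groups stayed apart. Its fall from 1108 ± 319.9 to 249 ± 78.0 was the largest among the 8 lower genes and also the least precise, with a log2 fold change of −2.15 (SE 0.28, 95% interval from −2.79 to −1.52, limma adjusted p = 0.00017). Bckdk, on the plus strand at chr7:127904082-127910221, had 409.7, 319.8 and 352 normalized counts in WT and 388, 391 and 507 in Vps15LKO livers. The groups overlapped, with WT replicate 1 above 2 of the Vps15LKO livers, and Vps15LKO replicate 3 was the highest of the 6. Its means of 360.4 ± 45.6 and 429 ± 67.8 differed by a log2 fold change of 0.25 (SE 0.14, 95% interval from −0.08 to 0.57, limma adjusted p = 0.15), which was not called. The log2 fold change of Bckdk was 0.12 without Vps15LKO replicate 3, 0.16 without WT replicate 2 and 0.34 without WT replicate 1. These 3 values include the lowest and the highest with each mouse left out, and Bckdk was not called in any case.

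Because the kinase and the phosphatase are read in the same library, their ratio does not depend on the size factor of that library. The ratio of Bckdk to Ppm1k counts, which is not corrected for gene length and is compared only between livers, was 0.306, 0.258 and 0.474 in WT and 1.54, 1.204 and 2.99 in Vps15LKO livers. Phosphatase reads outnumbered kinase reads in every WT liver, and the reverse held in every Vps15LKO liver. On the log2 scale the ratio went from −1.58 ± 0.45 to 0.82 ± 0.68, a difference of 2.40, with the groups apart (two-sided exact permutation p = 0.1, the smallest that 3 against 3 allows, and 0.17 when adjusted over 5 ratios). The log2 ratio of Bckdk to Bckdha, kinase over the subunit it phosphorylates, went from −3.88 ± 0.08 to −2.20 ± 0.45, a difference of 1.68 with the same exact permutation p of 0.1. No ratio can pass 0.05 in this design.

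The proportions of the subunits within the complex were compared in the same way, and no difference could pass 0.05. Bckdhb and Dbt were each taken over Bckdha, 61.7% of whose exon length is shared with B3gnt8. The log2 ratio of Bckdhb to Bckdha was −2.27 ± 0.13 in WT and −1.93 ± 0.06 in Vps15LKO livers, 0.35 higher with the groups apart (two-sided exact permutation p = 0.1, adjusted 0.17). That of Dbt to Bckdha was −1.69 ± 0.11 and −1.48 ± 0.12, and its groups overlapped (difference 0.21, exact permutation p = 0.2). With quantile normalization, which is not a single factor per library, the log2 fold changes were −0.91 for Bckdha, −0.96 for Bckdhb and −1.01 for Dbt, so the direction of both ratios turned. The proportion of the paired carboxylase subunits, Mccc2 to Mccc1, was 0.44 ± 0.17 and 0.36 ± 0.05 on the log2 scale, with overlapping groups (difference −0.08, exact permutation p = 0.5). Single livers moved this difference, to −0.18 without WT replicate 3 and to −0.02 without WT replicate 1.

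**Figure D2:**
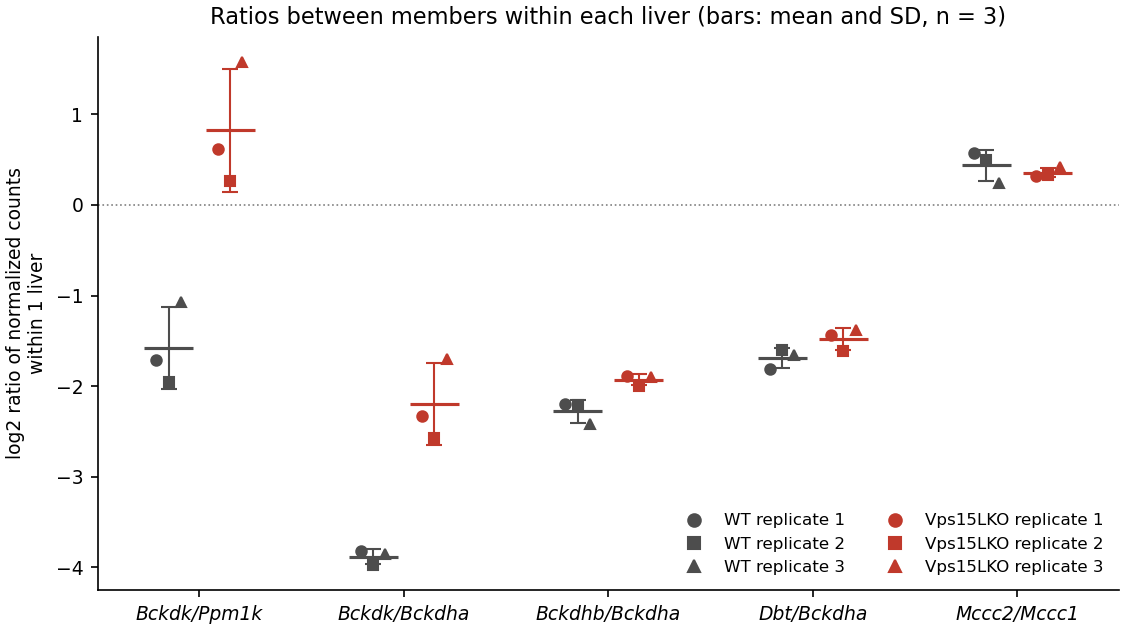
Log2 ratio of the normalized counts of 5 gene pairs within each liver (WT grey, Vps15LKO red, bars mean and SD, n = 3). Bckdk/Ppm1k lies below 0 in every WT liver and above 0 in every Vps15LKO liver, while Dbt/Bckdha and Mccc2/Mccc1 overlap between genotypes.

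Beyond the dehydrogenase the leucine branch runs through Ivd and the carboxylase of Mccc1 and Mccc2. Ivd encodes isovaleryl-CoA dehydrogenase and lies on the plus strand at chr2:118861954-118882909. It had 4366, 3731 and 4012 normalized counts in WT and 1332, 1613 and 1102 in Vps15LKO livers. The groups were far apart in all livers. The level fell from 4036 ± 318 to 1349 ± 256, a log2 fold change of −1.59 (SE 0.14, 95% interval from −1.92 to −1.27, limma adjusted p = 2.5e-05).

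Mccc1 and Mccc2 encode the biotin-carrying alpha subunit and the beta subunit of 3-methylcrotonyl-CoA carboxylase. Mccc1, on the minus strand at chr3:35959312-36000678, had 872, 878 and 887 normalized counts in WT, the tightest WT group of the 9 tested genes, and 341, 365 and 252 in Vps15LKO livers. The fall from 879 ± 7.32 to 319.5 ± 59.9 gave a log2 fold change of −1.48 (SE 0.14, 95% interval from −1.79 to −1.16, limma adjusted p = 3.3e-05). The groups did not overlap. Mccc1 shares short stretches with 3 genes on the other strand, B230207O21Rik being the longest at 321 bases or 2.93% of its exon length. Mccc2, on the minus strand at chr13:99948530-100015639, had 1298, 1239 and 1053 normalized counts in WT and 426, 460.3 and 336 in Vps15LKO livers. Here too the lowest WT liver stayed clearly above the highest Vps15LKO liver. The level went from 1197 ± 128 to 407 ± 64.2, a log2 fold change of −1.56 (SE 0.14, 95% interval from −1.87 to −1.24, limma adjusted p = 2.3e-05).

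Levels were compared between genes only after division by exon length, as normalized counts per kilobase. In WT liver Bckdha was highest at 2796 ± 222 per kilobase, followed by Ivd at 733 ± 57.8, Bckdhb at 610.2 ± 86.9, Bcat2 at 607 ± 60.8, Dbt at 491 ± 6.59 and Mccc2 at 427 ± 45.7. Ppm1k (184 ± 53.1), Bckdk (97.5 ± 12.3) and Mccc1 (80.3 ± 0.668) were lower, and Bcat1 was listed at 0. The WT ranges of Ivd and Bckdhb and those of Bckdhb and Bcat2 overlapped, and those of the other neighbours in this order did not. In Vps15LKO liver the order was Bckdha (1041 ± 183 per kilobase), Bckdhb (286 ± 40.3), Ivd (245 ± 46.5), Dbt (211 ± 20.7), Bcat2 (158 ± 26.6), Mccc2 (145 ± 22.9), Bckdk (116 ± 18.4), Ppm1k (41.3 ± 13.0), Mccc1 (29.2 ± 5.47) and Bcat1 (0.243 ± 0.0781). Bckdk thus stood above Ppm1k with no overlap, where in WT it stood below. In the Vps15LKO order the ranges of Bckdhb and Ivd, Ivd and Dbt, Bcat2 and Mccc2, Mccc2 and Bckdk, and Ppm1k and Mccc1 overlapped. The ranks of Bckdha and Bcat2 carry the limit on strand given above.

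The scaling of the libraries sets how large these falls appear. Scaling all libraries to the same total of reads moved the median log2 fold change over all tested genes from −0.02 to 0.70, and the share of tested genes called lower from 33.0% to 11.1%. All 8 genes were still called lower. Their log2 fold changes under this scaling ran from −1.43 (Ppm1k) and −1.23 (Bcat2) to −0.50 (Dbt) and −0.37 (Bckdhb, limma adjusted p = 0.0131), with a median of −0.75 over the 9 tested members. Bckdk was called higher under it, at a log2 fold change of 0.97 (limma adjusted p = 0.00040), where 66.8% of all tested genes were called higher. Quantile normalization, which gives all libraries the same distribution of values, left the 8 genes called lower, from −2.14 (Ppm1k) to −0.91 (Bckdha), and Bckdk at 0.23.

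**Figure D3:**
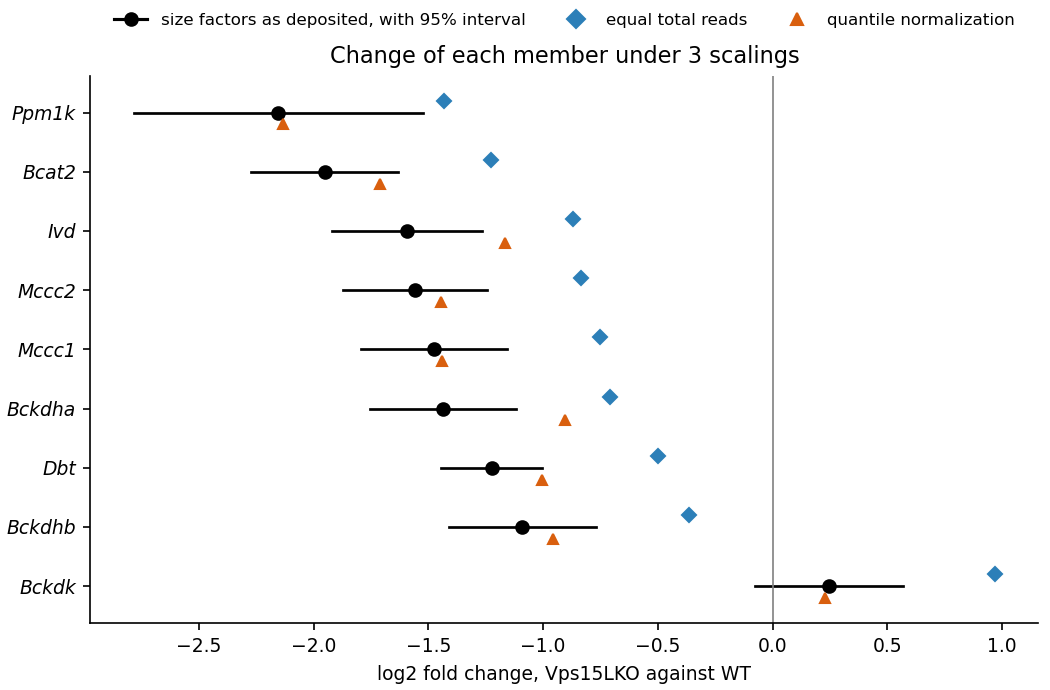
Log2 fold change (Vps15LKO against WT) of the 9 tested genes with the size factors as deposited (black, with 95% interval), with equal total reads (blue) and with quantile normalization (orange). The 8 genes from Ppm1k (−2.15) to Bckdhb (−1.09) lie left of 0 under each of the 3 scalings, and Bckdk (0.25) moves to 0.97 with equal total reads.

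The 3 Vps15LKO livers took the same order for each of the 8 lower genes, with replicate 2 highest and replicate 3 lowest. The median log2 difference from the WT mean over the 8 genes was −1.46 in replicate 1, −1.29 in replicate 2 and −1.81 in replicate 3. This order was shared by 53% of the 5099 genes called lower in the whole table. Bckdk differed, being highest in replicate 3. The summed level of 10 hepatocyte markers followed the order of the 8 genes, with 1309096, 1553370 and 1042978 normalized counts in Vps15LKO replicates 1, 2 and 3. That of 8 markers of cholangiocytes and progenitors ran the opposite way, with 17870.2, 14740.2 and 26033. Endothelial and pancreatic acinar sums had the order of the hepatocyte sum and the lymphocyte sum that of the cholangiocyte sum, while those of macrophages (33432, 31281 and 30701), stellate cells (31069.9, 34039 and 36689.9) and dividing cells (2927, 2968 and 3135) followed neither. The part of these in the spread of the 8 genes was not tested.

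Markers of the cells that a liver holds also moved with genotype. Of the 10 hepatocyte markers, 8 were called lower and none higher, against 33.0% and 33.5% of all tested genes. Their median log2 fold change was −1.67, and it was −0.95 with equal total reads (8 called lower) and −0.45 with quantile normalization (6 called lower). Their sum ranged from 3358424 to 3791667 normalized counts in WT and from 1042978 to 1553370 in Vps15LKO livers. Alb (−1.48, SE 1.38) and Tf (−0.65, SE 0.58) were not called, although all their Vps15LKO values lay below WT. Quantile normalization gives the highest gene of each library the same value, so Alb shows no change there by construction. Markers of macrophages and Kupffer cells (12 of 14 called higher, sums 7376 to 8857 and 30701 to 33432), cholangiocytes and progenitors (8 of 8, 1270.3 to 1728 and 14740.2 to 26033), stellate cells and fibroblasts (11 of 11, 7196 to 7713 and 31069.9 to 36689.9) and dividing cells (8 of 8, 147 to 434 and 2927 to 3135) were higher. Among those of macrophages and Kupffer cells, Clec4f (log2 fold change 0.40) and Timd4 (−0.62) were not called. For Timd4 every Vps15LKO value lay below every WT value. Lymphocyte markers were called higher in 6 of 7 tested, with sums of 127 to 160.4 and 344 to 407, and with quantile normalization in 3, with 1 lower and a median of 0.56 in place of 1.76. Endothelial markers had 4 of 9 called lower and 3 higher, and sums of 9164 to 9874 and 8143 to 9679.6, but with equal total reads none was called lower and 6 were called higher, which is the share of all tested genes called higher there (66.8%, with 11.1% lower). With quantile normalization 2 were called lower and 4 higher. Of 10 pancreatic acinar markers, 3 were tested, Cela1 (log2 fold change −1.69) and Cela2a (−1.01) were called lower and Ctrc was not called, with sums of 368 to 524 and 131 to 179, while the defining Cpa1, Cpb1 and Pnlip had no read in any library. None of 4 adipocyte markers was high enough to test, with sums of 2.65 to 28.3 and 0 to 4.86. In bulk tissue, fewer hepatocytes and less of a transcript in each hepatocyte cannot be told apart, and the part of cell makeup in the values above was not tested.

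The pathway was then followed into the genes that work beside or after the 10. Of the 16 genes of later valine and isoleucine breakdown and of the propionate arm they feed, all 16 were called lower, with a median log2 fold change of −1.50, where 33.0% of all tested genes were. Abat, a mitochondrial aminotransferase of 4-aminobutyrate, fell most, from 9477, 10359 and 9830 (replicates 1 to 3) to 2228, 2755 and 1557 normalized counts (log2 fold change −2.22). Acadsb, the dehydrogenase of the isoleucine branch (−1.93), Aldh6a1, the methylmalonate semialdehyde dehydrogenase of the valine branch (−1.90), and Mut, the methylmalonyl-CoA mutase (−1.51), were also lower. Dld, the dihydrolipoamide dehydrogenase that the complex shares with other dehydrogenase complexes, changed least, from 1814 ± 96.7 to 999 ± 141 (log2 fold change −0.87). With equal total reads, 15 of the 16 were still called lower, against 11.1% of all tested genes, with Dld (−0.14) the exception. All 16 genes also had Vps15LKO replicate 2 highest and replicate 3 lowest.

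Auh encodes the hydratase that follows the carboxylase in leucine breakdown. It had 776, 655 and 594 normalized counts in WT and 336, 387 and 304 in Vps15LKO livers, with the groups apart and a log2 fold change of −0.98 (SE 0.13, limma adjusted p = 0.00023). With equal total reads it was at −0.25 and was not called. Bdh1, which converts acetoacetate, a product of leucine, to 3-hydroxybutyrate, was called lower at −0.52 (limma adjusted p = 0.036), and its log2 fold change was 0.21 with equal total reads and 0.13 with quantile normalization.

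Among the carriers that move these amino acids across membranes, 5 of 7 tested were called higher and 1 lower, with a median log2 fold change of 1.59, against 33.5% called higher among all tested genes. Slc7a8, a plasma membrane transporter of large neutral amino acids, had 192, 215 and 256 normalized counts in WT and 1251, 1229 and 1018 in Vps15LKO livers, a log2 fold change of 2.40 (limma adjusted p = 2.4e-06). All Vps15LKO livers were far above the WT livers. Slc3a2, the heavy chain partner of such transporters, rose from 953 ± 92.2 to 2863 ± 264 (1.59), Slc43a2 rose by 1.85 and Slc7a7 by 1.69, while Slc7a5 rose by 0.43 (limma adjusted p = 0.030), from 115 ± 16.8 to 154 ± 8.64, a change that came to 0.06 with quantile normalization. Slc25a44, the mitochondrial carrier of branched-chain amino acids, was the one called lower, with 1684, 1732 and 1796 normalized counts in WT and 784, 916 and 753 in Vps15LKO livers (log2 fold change −1.09, limma adjusted p = 2.6e-05). Slc43a1 (−0.53) was not called and Slc6a19 was too low to test. With equal total reads the same 5 genes were called higher, a share near the 66.8% of all tested genes called higher there, and Slc25a44 was called lower, as were 11.1% of all tested genes. Quantile normalization gave 4 higher and 2 lower. Slc7a8, Slc3a2, Slc43a2 and Slc7a7 are also expressed outside hepatocytes. The marker sums of macrophages, cholangiocytes, stellate cells and lymphocytes given above were higher in the same livers. Endothelial sums overlapped between genotypes and pancreatic acinar sums were lower. The part of these cells in the transporter values was not tested.

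Genes that make or attach the lipoate and biotin used by the dehydrogenase and the carboxylases were also read. Lipt1, which transfers lipoate (log2 fold change −1.25), Lias, which makes it (−0.87), Btd, which recycles biotin (−0.79), and Hlcs, the ligase that attaches biotin to carboxylases (−0.35), were called lower, and Lipt2 (0.08) was not called. With equal total reads Lipt1 was called lower at −0.53, Lias (−0.15) and Btd (−0.07) were not called, and Hlcs (0.38) and Lipt2 (0.80) were called higher. With quantile normalization Lipt2 was called lower, at −0.51, so its call turned between scalings.

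Regulators that have been reported for this pathway in liver were mixed, with 4 of 7 called lower and 1 higher, against 33.0% and 33.5% of all tested genes. Klf15, a transcription factor of amino acid breakdown, had 4406, 3687 and 3873 normalized counts in WT and 779, 882 and 659 in Vps15LKO livers, with no overlap and a log2 fold change of −2.37 (limma adjusted p = 1.9e-06). Mlxipl, the gene of the carbohydrate-responsive factor ChREBP, fell from 4958 ± 418 to 1133 ± 247 (−2.15), and Ppara, the nuclear receptor of fatty acid oxidation, changed by −1.99. Ppargc1a was called lower at −0.69 (limma adjusted p = 0.038), although 1 WT liver lay within the Vps15LKO range and its log2 fold change was 0.03 with equal total reads. Sesn2, a cytosolic leucine sensor, was called higher at 0.54, and its relatives Sesn1 (−0.04) and Sesn3 (−0.09) were not called. With equal total reads 3 of the 7 were called lower and 3 higher, against 11.1% and 66.8% of all tested genes.

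**Figure D4:**
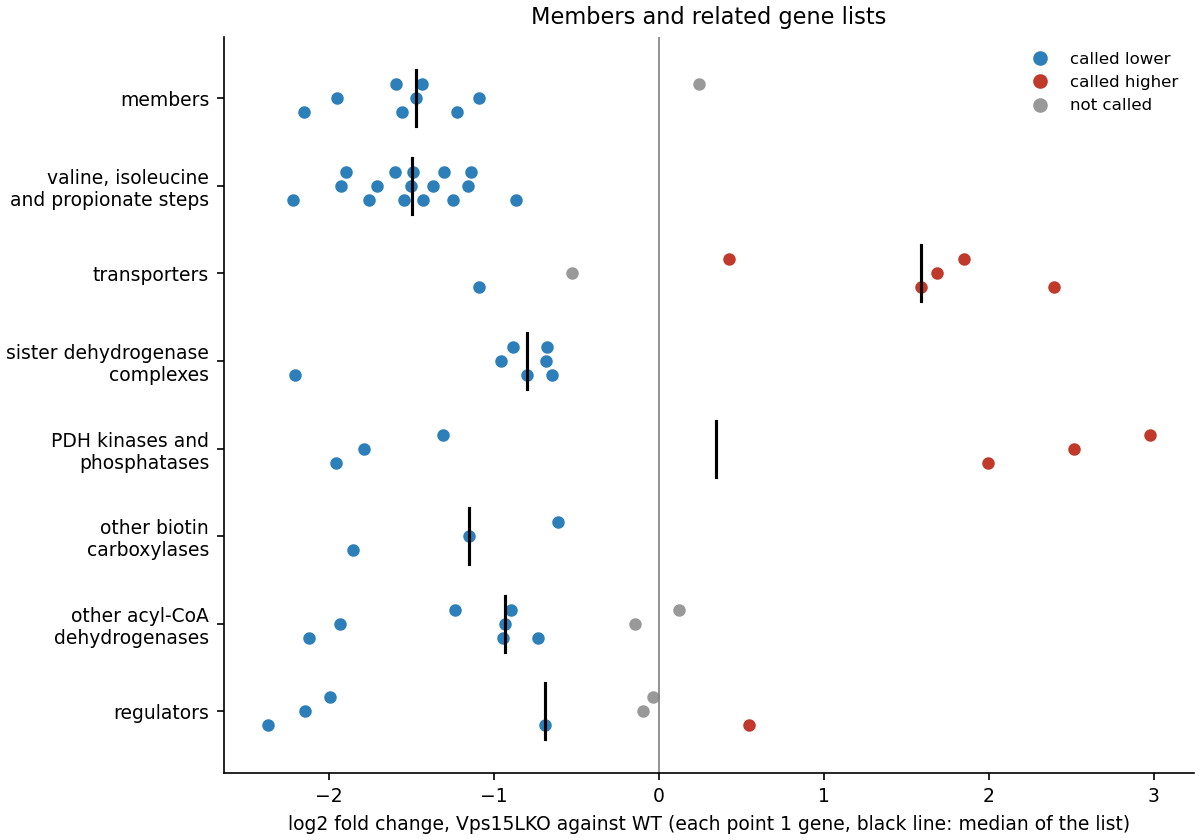
Log2 fold change (Vps15LKO against WT) of the tested genes of each list, 1 point a gene, blue called lower, red called higher and grey not called, with a black line at the list median. The members of the branched-chain pathway set out above (median −1.48 over 9) and the later valine and isoleucine genes (−1.50) lie left of 0 except Bckdk, while 5 of the 7 transporters lie right of 0.

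The related 2-oxo acid dehydrogenase complexes allowed the fall of the branched-chain complex to be read against its nearest relatives. All 7 genes of the pyruvate, 2-oxoglutarate and 2-oxoadipate complexes were called lower, against 33.0% of all tested genes, with a median log2 fold change of −0.80. With equal total reads only Dhtkd1 was, against 11.1% of all tested genes, and the median was −0.07. Dhtkd1, of the 2-oxoadipate complex in lysine breakdown, was at −2.21, and the other 6 ran from −0.96 (Pdhb) to −0.65 (Pdha1). In ratios chosen after these values were seen, Bckdha over Pdha1, its counterpart in the pyruvate complex, went from 1.49 ± 0.13 to 0.70 ± 0.15 on the log2 scale, a difference of −0.79 with the groups apart (two-sided exact permutation p = 0.1, adjusted over 3 ratios 0.2). Bckdhb over Pdhb (−0.14, exact permutation p = 0.2) and Dbt over Dlat (−0.34, exact permutation p = 0.2) had smaller differences and overlapping groups. The ratio of Bckdha carries the limit on strand given above, through the exon length that Bckdha shares with B3gnt8.

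For each tested member, the gene with the most similar profile was taken as the one with the smallest root-mean-square difference over the 6 livers between log2 levels centred on the own WT mean, among the 11248 genes averaging 100 normalized counts or more. The nearest gene was Ftcd for Bcat2 (0.069), 1700037C18Rik for Bckdha (0.023), Smim27 for Bckdhb (0.041), Osbpl1a for Dbt (0.019), Rdh16f2 for Ppm1k (0.092), Mgst1 for Ivd (0.033), Mut for Mccc1 (0.047) and Aqp9 for Mccc2 (0.039). The profile of Bckdk was closest to Eif3k (0.031), Rpl27a (0.051) and Rpl7 (0.056), a translation initiation factor subunit and ribosomal protein genes. These distances describe 6 livers and say nothing of shared control.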

How the data were processed

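Liver RNA of 3 WT and 3 Vps15LKO mice was measured by poly(A) RNA-Seq. The authors cleaned the reads (SOAPnuke), aligned them to GRCm38 (HISAT2), assigned them to genes (featureCounts) and scaled the resulting counts (DESeq2). Versions, strand and multi-mapping settings are not given in the sources used here. The values the authors deposited are a signal, the read count divided by 1 size factor per library. All values above 0 (100%, within 0.001) were whole multiples of 1 read, so whole reads were recovered, from 16137093 to 18110223 in a library, and counting error is contained in the spread between mice. No library copied another (chi-square per gene of 14.0 or more between replicates).

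The deposited values were not rescaled. Genes reaching 20 normalized counts in 3 livers or more were compared with limma 3.58.1 (trend) in R 4.3.3. Fold changes on the log2(value + 1) scale understate changes of low genes. Symbols, exons and coordinates are from GENCODE M21, and promoters from RefSeq. The members and the gene lists were chosen with earlier results of these data known, so no list was given a p of its own. The genes named are the 10 members with their values in every liver, genes of 10 pathway lists, those with the largest changes, called higher or not called first, and for each member the genes of most similar profile. Some genes of these lists are not reported here, and lists that hold them are given by single genes. A planned ratio of Bcat1 to Bcat2 was left out, since Bcat1 had no WT read. Replicate numbers name different mice and no source ties them to a litter. On simulated counts over 15390 genes, 90.6% of 2-fold and 100% of 4-fold changes were recovered with 8 false calls. In these counts 197 of the tested genes were changed, and the dispersion was 0.02. Smaller changes were not simulated, and recovery with 66.5% of genes called, as in the livers, was not tested.

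Alternatives were pseudocounts of 0.1 and 10, other filters, scalings and thresholds, the recovered reads tested by limma voom, DESeq2 1.42.0 and edgeR 4.0.16, each mouse left out, and the replicate number as a block. Python 3.11.15, numpy 2.4.6, pandas 2.3.3 and matplotlib 3.10.9 were used.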

Additional observations from a re-analysis of the deposited data

How the results depend on the processing

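Of 15430 genes, 10262 were called with the settings of the text, and between 7830 and 12142 under the 22 alternatives (9098 to 10222 with each mouse left out). Bcat2, Bckdha, Bckdhb, Dbt, Ppm1k, Ivd, Mccc1 and Mccc2 were called lower under all 22. The count of members called higher was 0 in the text, 0 with each mouse left out, and 1 under total-read scaling (Bckdk, log2 fold change 0.97, adjusted p = 0.00040 from limma) and 1 with no filter (Bcat1, 1.68, a value that depends on the pseudocount). The share of lower genes among those called, 49.7% in the text, was 14.2% under total-read scaling, 42.6% with upper-quartile scaling, 43.6% with no filter, 55.3% with quantile normalization and 56.5% when all 6 livers had to reach 20 normalized counts. edgeR called 10205 genes, DESeq2 9951 and limma voom 10185. With the replicate number as a block, 10048 genes were called and the same 8 members were lower. Same-numbered livers did not deviate together (correlations of −0.01, −0.01 and 0.05). This shows no pairing of the mice by number, and with 3 mice a genotype it cannot exclude one. Leaving out each mouse moved the log2 fold change of Ppm1k between −2.42 and −1.90 and the Bckdk/Ppm1k difference between 2.02 and 2.68. With 3 mice a genotype, the exact tests of ratios cannot pass 0.05, and Bcat1 rests on at most 4 reads in a library.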

Other observations

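The kinases and phosphatases of the pyruvate dehydrogenase complex, relatives of Bckdk and Ppm1k, moved in both directions, with 3 of 6 called lower and 3 higher, against 33.0% and 33.5% of all tested genes. The counts were the same under total-read scaling, where 11.1% of all tested genes were called lower and 66.8% higher. Pdk4, an inhibitory kinase known to respond to fasting, had 92.8, 81.2 and 56.6 normalized counts in WT and 618, 555 and 241 in Vps15LKO livers, a log2 fold change of 2.52 (limma adjusted p = 0.00025). All Vps15LKO livers were above the WT livers, and replicate 3 was the lowest of them. Pdk3 (2.98) and the phosphatase gene Pdp1 (1.997) were also higher from low WT levels, while Pdk1 (−1.96), Pdk2 (−1.31) and Pdp2 (−1.79) were lower.

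Other acyl-CoA dehydrogenases, which belong to the family of Ivd, were called lower in 7 of 9 cases (median log2 fold change −0.93, against 33.0% of all tested genes called lower), and in 3 of 9 with 2 higher under total-read scaling (11.1% and 66.8% of all tested genes). Acadsb (−1.93) and Acad8 (−1.43), of the same family, are not among the 9 and were counted above with the valine and isoleucine genes. Gcdh, of lysine and tryptophan breakdown, fell from 8372 ± 742 to 1962 ± 537 normalized counts (−2.12) and Acad11 changed by −1.93. Acadvl (−1.23), Acads (−0.95), Acadm (−0.90) and Acadl (−0.73), which oxidize fatty acids from very long to short chains, fell less than Gcdh and Acad11. Acad9 (−0.15) and Acad12 (0.12) were not called. The 3 genes listed as other biotin-dependent carboxylases, relatives of the Mccc1 and Mccc2 enzyme, were all called lower (33.0% of all tested genes), with Acacb at −1.85, the pyruvate carboxylase gene Pcx at −1.15 and Acaca at −0.61 (0.11 under total-read scaling), and 2 of the 3 were called lower under total-read scaling (11.1% of all tested genes) and 1 with quantile normalization, where Pcx was at −0.24. Pcca (−1.76) and Pccb (−1.60), of the biotin-dependent propionyl-CoA carboxylase, were counted above with the valine and isoleucine genes.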
